A study of Homo sapiens with 9 samples.

Results

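Transcripts of the RNA interference machinery and of the processing bodies (P-bodies) were examined in an established human glioma line, U251, which the sample records also call U251MG. The members were 10 genes picked by name: DROSHA, DGCR8, XPO5, DICER1, TARBP2, AGO1, AGO2, TNRC6B, LSM14A and DDX6. They were chosen with earlier results of these data known. All probe sets carrying these symbols in the array annotation were taken, which gave 19 of the 22215 probe sets tested, for 9 of the 10 genes. No probe set carried the symbol of XPO5, so it was not analysed here. DICER1 had 6 probe sets, DGCR8 4, LSM14A 3 and the other members 1 each.

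The study measured 9 arrays from 3 groups of 3 cultures. One group received Oligofectamine, a lipid transfection reagent, with a small interfering RNA (siRNA) that targets WT1, a transcription factor with zinc fingers. Another received the reagent with a non-targeting siRNA, called scrambled here, and the last received the reagent alone. Both siRNAs were used at 100 nM, so the reagent was common to all groups and an siRNA to 2 of them. The design calls the cultures biological triplicates, but the sources used here do not say whether a replicate number marks a day or a batch. Groups were compared within a number. The p-values of the main fit therefore measure the spread left among these cultures once differences between numbers are removed.

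RNA interference works through a fixed chain of proteins. The Microprocessor, made of the ribonuclease DROSHA and its RNA-binding partner DGCR8, cuts microRNA hairpins out of nuclear transcripts, and exportin 5 (XPO5) carries them to the cytoplasm. There the ribonuclease DICER1, with TARBP2, trims them to short duplexes, and an Argonaute protein keeps 1 strand as its guide. Synthetic siRNAs enter at the Argonaute step, and AGO2 is the Argonaute that cuts a matched target. TNRC6B and its relatives link Argonautes to deadenylation, and repressed messages gather in P-bodies, where the helicase DDX6 and the RNA-binding protein LSM14A hold translation down.

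LSM14A was the member that changed with the WT1 siRNA. It stood at 51.0%, 52.0% and 61.1% of the scrambled level at its 3 probe sets and at 52.4%, 56.6% and 68.2% of the reagent level. DICER1 rose with the scrambled siRNA against reagent at 1 of its 6 probe sets, to 132% of the reagent level, and another lay just past the threshold. Its brightest probe set did not pass (adjusted p = 0.45 in limma), and the call held in 8 of 20 alternative fits. No probe set of DROSHA, DGCR8, TARBP2, AGO1, AGO2, TNRC6B or DDX6 passed in any comparison.

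Values are log2 expression as deposited, and each difference comes from limma fitted to all 9 arrays with the replicate number as a block, so that groups are compared within a number. A probe set was called at an adjusted p (Benjamini-Hochberg over all 22215) under 0.05. Each difference is given with its standard error (SE), and n = 3 per group throughout. Over all probe sets 71.4% of the sum of squares lay between replicate numbers and 15.6% between groups. WT1 itself, at its brightest probe set, ran from 4.76 to 5.09 with its siRNA, from 5.41 to 5.89 with scrambled siRNA and from 5.89 to 6.58 with reagent. Its mean was 60.0% of the scrambled level (log2 difference −0.74, adjusted p = 0.00336) and 41.0% of the reagent level (−1.29, adjusted p = 0.000619), and the scrambled group lay at 68.4% of reagent (adjusted p = 0.0164). Of the markers expected in glioma cells, VIM and CD44 were brighter than 99.9% and 99.5% of probe sets. NES was brighter than 85.1%, SOX2 than 74.2%, GFAP than 56.6% and S100B than 20.3%. SOX2 was higher with the WT1 siRNA than with scrambled siRNA (log2 difference 0.75, adjusted p = 0.00282). GFAP differed by −1.11 between scrambled siRNA and reagent but did not pass (adjusted p = 0.0647). No other call was made among these glioma markers. Of 6 measured markers of other cells, PTPRC of leukocytes, EPCAM of epithelium and ALB of hepatocytes were brighter than 14.6%, 9.26% and 7.44%. MBP of oligodendrocytes, PECAM1 of endothelium and CD3E of T cells were brighter than 29.4%, 37.4% and 47.9%, all above S100B, with group means within 0.1 of each other on the log2 scale.

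Against the scrambled siRNA, 3 of the 19 member probe sets were lower and 0 higher, where 3.27% of all probe sets were called and 1.94% were called lower. Against reagent the WT1 siRNA again gave 3 lower and 0 higher, against 1.25% called and 0.837% called lower over all probe sets. The scrambled siRNA against reagent gave 1 higher and 0 lower, against 1.09% called and 0.554% called higher. The medians of the 19 differences were −0.03, −0.02 and 0.03, and those of all probe sets were 0.00, 0.01 and 0.01. All calls but 1 lay in LSM14A, whose probe sets report the same gene. Because the members were chosen with earlier results known, these counts cannot tell whether the set changed more than other genes. Both comparisons of the WT1 siRNA use the same 3 treated arrays, so they are not independent of each other.

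**Figure D1:**
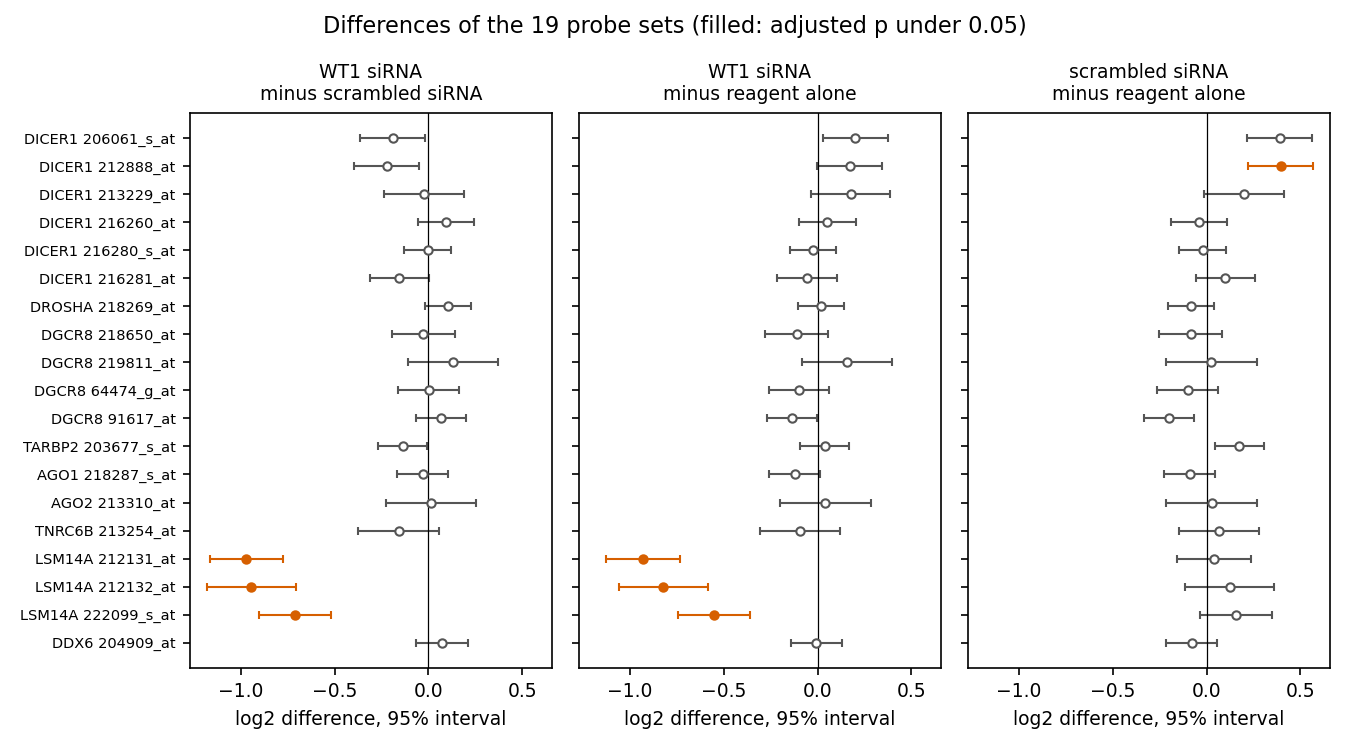
Log2 differences of the 19 probe sets in the 3 comparisons (x axis) with 95% intervals from the blocked fit, and filled orange points where the adjusted p was under 0.05. The 3 LSM14A probe sets lie between −0.97 and −0.55 in both comparisons of the WT1 siRNA, and the DGCR8 rows are the probe sets annotated to DGCR8 and MIR1306 together.

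LSM14A is an RNA-binding protein of P-bodies that binds DDX6 and represses translation. At probe set 212131_at its log2 level was 8.77, 9.13 and 9.28 with reagent alone in replicate numbers 1, 2 and 3. With the scrambled siRNA it was 8.85, 9.16 and 9.29, and with the WT1 siRNA 7.82, 8.00 and 8.58. Every array with the WT1 siRNA lay below every control array, and the control groups overlapped.

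At probe set 212132_at the reagent arrays had 9.43, 9.85 and 9.81, the scrambled arrays 9.47, 10.10 and 9.89, and the WT1 siRNA arrays 8.64, 8.78 and 9.21. At 222099_s_at these values were 7.94, 7.61 and 7.63, then 8.16, 7.80 and 7.69, then 7.45, 6.86 and 7.22. The treated arrays lay below all control arrays at these probe sets too. The probe sets ranked the replicate numbers differently: number 1 was lowest in the control groups at 212131_at and 212132_at and highest at 222099_s_at.

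Against scrambled siRNA LSM14A fell by 0.97 on the log2 scale at 212131_at (SE 0.0873, adjusted p = 0.00132), by 0.94 at 212132_at (SE 0.107, adjusted p = 0.00348) and by 0.71 at 222099_s_at (SE 0.0853, adjusted p = 0.00447). At 212131_at the differences within numbers 1, 2 and 3 were −1.04, −1.16 and −0.72. They were −0.83, −1.32 and −0.68 at 212132_at and −0.71, −0.94 and −0.48 at 222099_s_at, so number 2 gave the greatest fall and number 3 the smallest at each probe set. For WT1 the differences within the numbers were −0.82, −0.80 and −0.59.

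Against reagent LSM14A fell by 0.93 at 212131_at (SE 0.0873, adjusted p = 0.0051), by 0.82 at 212132_at (SE 0.107, adjusted p = 0.0101) and by 0.55 at 222099_s_at (SE 0.0853, adjusted p = 0.0207). Each fall was seen in 3 of 3 numbers. Between the scrambled siRNA and reagent the differences were 0.04 (95% interval −0.16 to 0.24), 0.12 (−0.12 to 0.36) and 0.16 (−0.03 to 0.35), and none passed (adjusted p = 0.928, 0.746 and 0.529).

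The LSM14A calls depended on the term for the replicate number and on number 2. Without the block no LSM14A probe set passed (adjusted p = 0.486, 0.448 and 0.612 against scrambled siRNA, 0.884 to 1.00 against reagent). Without the 3 arrays of number 2 the falls against scrambled siRNA were 0.88, 0.76 and 0.59 in size and missed the threshold (adjusted p = 0.0596, 0.0596 and 0.109), in a fit that called 2 probe sets of all. Against reagent they had an adjusted p of 0.203, 0.203 and 0.277 there. Without reagent replicate 2 alone, the calls against reagent were also lost (0.0532, 0.0942 and 0.149). That of 222099_s_at was lost besides without reagent replicate 1 (0.0614) or 3 (0.0711), WT1 siRNA replicate 2 (0.0847) or number 1 (0.0601). When the reagent and WT1 siRNA groups were fitted alone the adjusted p was 0.0602, 0.0602 and 0.0739.

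**Figure D2:**
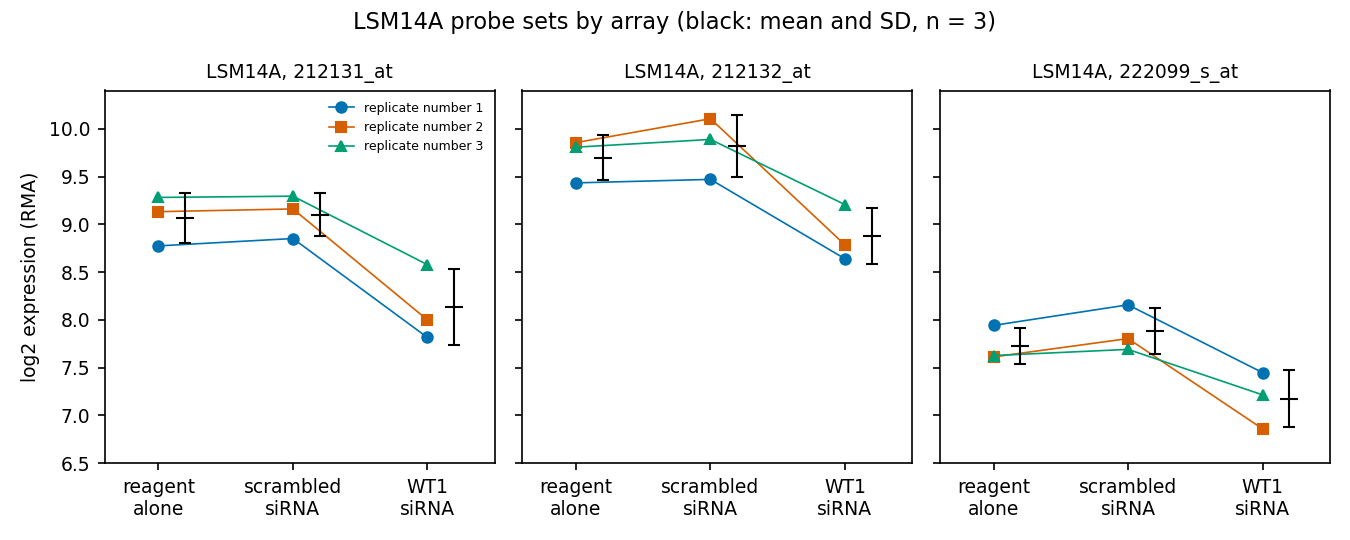
Log2 expression (y axis) of LSM14A at its 3 probe sets in each array, by treatment (x axis); lines join arrays with the same replicate number, and black marks give the mean and SD of 3 arrays. The WT1 siRNA arrays, at 7.82 to 8.58 in the left panel, lie below all arrays of both controls in every panel.

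DDX6, the helicase partner of LSM14A, was measured by 1 dim probe set, brighter than 10.5% of all probe sets. Its values ran from 4.28 to 4.50 over the 9 arrays, and its differences were 0.07 and −0.01 for the WT1 siRNA against scrambled siRNA and reagent, and −0.08 between the controls (adjusted p = 0.638, 0.976 and 0.697). A change of the transcript may be understated at such a level. Further partners of P-bodies, picked after their values were seen, did not pass either. EIF4ENIF1, which carries eIF4E into P-bodies, differed by −0.20 from scrambled siRNA and −0.23 from reagent (adjusted p = 0.29 and 0.252). LSM14B, the close relative of LSM14A, differed by −0.08 and 0.31 (SE 0.186, adjusted p = 0.902 and 0.472), with differences within numbers of −0.39, 0.27 and −0.11 against scrambled siRNA.

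DICER1 splits into bright and dim probe sets. Those named 206061_s_at, 212888_at and 213229_at had means over all arrays of 6.88, 7.76 and 8.29. The other 3 had means of 4.28, 4.94 and 4.46 and were brighter than 9.07% to 22.8% of probe sets. The dim ones spanned 4.13 to 5.04 over the 9 arrays and passed in no comparison.

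At 212888_at DICER1 had 7.25, 7.79 and 7.68 with reagent in numbers 1, 2 and 3. It had 7.65, 8.37 and 7.89 with scrambled siRNA and 7.44, 8.14 and 7.66 with the WT1 siRNA. The groups overlapped, but the scrambled array was the highest of its number in 3 of 3. The rise with scrambled siRNA over reagent was 0.40 (SE 0.0772, adjusted p = 0.0494), with differences of 0.40, 0.57 and 0.21 within the numbers.

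At 206061_s_at the values were 6.19, 7.35 and 6.51 with reagent, 6.71, 7.73 and 6.79 with scrambled siRNA, and 6.29, 7.65 and 6.71 with the WT1 siRNA. The order within every number was reagent, WT1 siRNA, scrambled siRNA. The difference between scrambled siRNA and reagent was 0.39 (SE 0.0771, 95% interval 0.22 to 0.56) and did not pass (adjusted p = 0.0503). At 213229_at, the brightest, it was 0.20 (SE 0.0945, adjusted p = 0.45), with 0.23, 0.35 and 0.01 within the numbers.

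With the WT1 siRNA the 3 bright DICER1 probe sets lay above reagent by 0.20, 0.17 and 0.18 (adjusted p = 0.261, 0.333 and 0.423) and below scrambled siRNA by differences of −0.19, −0.22 and −0.02 (adjusted p = 0.257, 0.176 and 0.947). None of these passed. The call at 212888_at held in 8 of 20 alternative fits (adjusted p up to 1.00), and 206061_s_at passed in 7 of 20. The first was lost without the block, with a random block (0.204), after centring arrays on their medians (0.0614), and with the 6 probe sets averaged (0.204). It was also lost when 1 array was left out: scrambled replicate 1 (0.196), 2 (0.289) or 3 (0.0992), reagent replicate 1 (0.167) or 2 (0.254), or WT1 siRNA replicate 2 (0.068). Without number 1 or 2 it had 0.205 and 0.535.

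**Figure D3:**
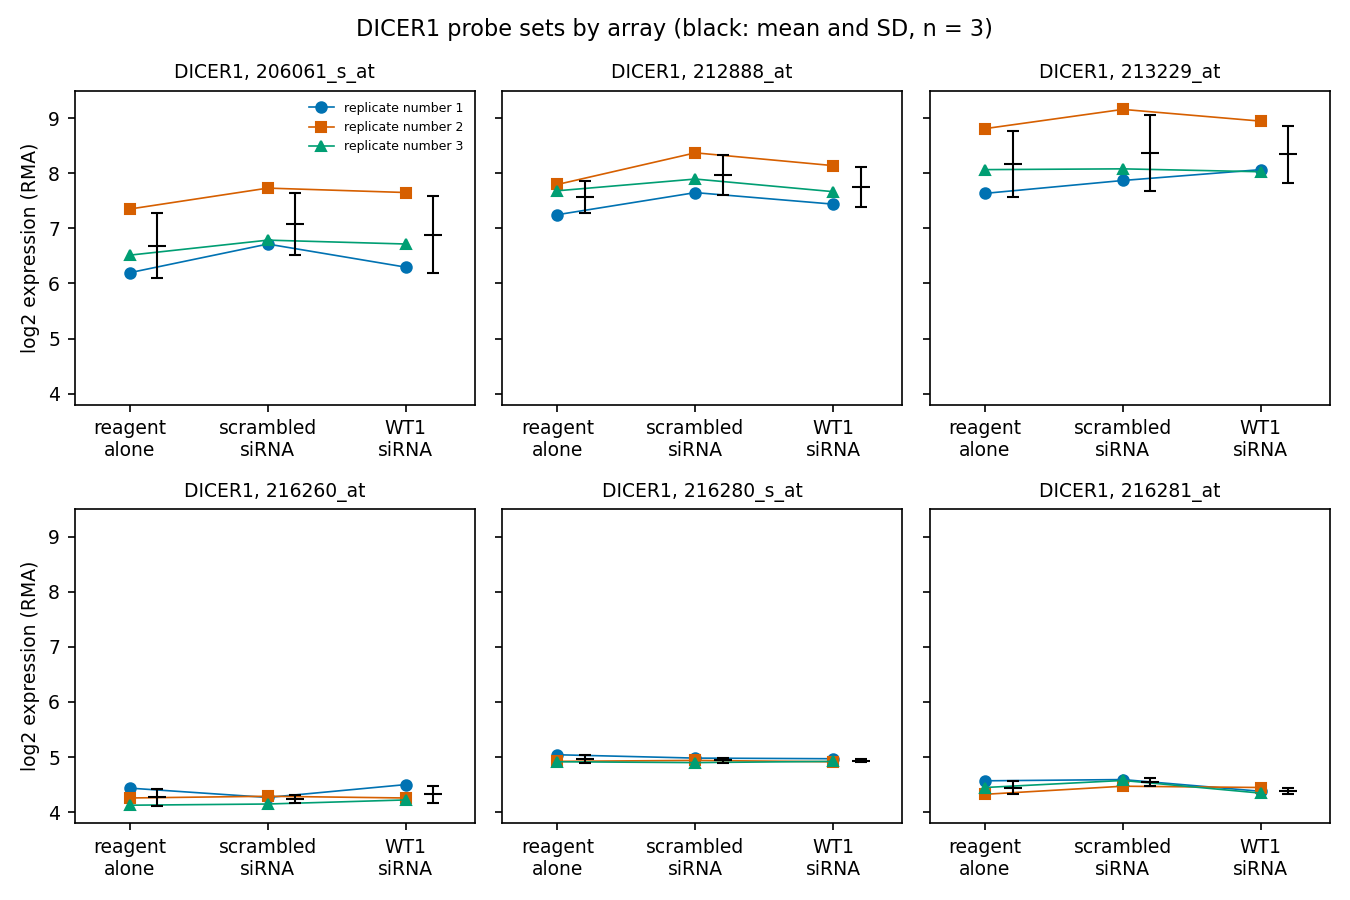
Log2 expression (y axis) of DICER1 at its 6 probe sets in each array, by treatment (x axis); lines join arrays with the same replicate number, and black marks give the mean and SD of 3 arrays. In the upper row number 2 lies highest, up to 9.16, while the probe sets of the lower row stay between 4.13 and 5.04.

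TARBP2, the double-stranded RNA-binding partner of DICER1, had 8.01, 7.93 and 8.05 with reagent, 8.14, 8.08 and 8.29 with scrambled siRNA and 7.97, 7.97 and 8.16 with the WT1 siRNA. The scrambled arrays lay above all reagent arrays. The difference of 0.17 between these groups (SE 0.0584, 0.13, 0.15 and 0.25 within the numbers) did not pass (adjusted p = 0.248), nor did the difference of −0.14 between the WT1 and scrambled siRNAs (adjusted p = 0.285). Arrays of compared groups did not overlap at 4, 3 and 2 of the 19 probe sets in the 3 comparisons, against 6.67%, 5.50% and 5.26% of all probe sets. Outside LSM14A these were TARBP2 and 218650_at, below, between the controls, and the dim DICER1 probe set 216281_at between the siRNAs.

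DROSHA, the nuclear ribonuclease, had 9.06, 9.59 and 9.51 with reagent. It had 8.96, 9.53 and 9.43 with scrambled siRNA and 9.07, 9.64 and 9.51 with the WT1 siRNA. Number 1 was lowest in every group, and numbers held 96.6% of its sum of squares. The WT1 siRNA differed from scrambled siRNA by 0.10 (95% interval −0.02 to 0.22), with 0.11, 0.12 and 0.08 within the numbers, and from reagent by 0.02 (−0.10 to 0.14), and neither passed (adjusted p = 0.404 and 0.908).

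The 4 probe sets of DGCR8 are annotated to DGCR8 and to MIR1306, a microRNA gene that lies within DGCR8 in RefSeq. For 218650_at and 219811_at the annotated transcript belongs to DGCR8, and for the other 2 the annotation gives no RefSeq transcript. The mature microRNAs of MIR1306 (GRCh38.p14, plus strand of chromosome 22) are shown because the shared annotation names them. They are far shorter than an array target, their own level was not measured here, and capitals mark the seed, bases 2 to 8.
hsa-miR-1306-5p: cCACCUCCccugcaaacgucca
hsa-miR-1306-3p: aCGUUGGCucugguggug
The seeds of the 2 arms differ, so they form no common seed group.

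At 218650_at the DGCR8 level was 8.05, 8.00 and 8.04 with reagent, 8.00, 7.86 and 7.99 with scrambled siRNA and 7.77, 7.98 and 8.02 with the WT1 siRNA. All scrambled arrays lay just below all reagent arrays, with a difference of −0.08 that did not pass (adjusted p = 0.753). The greatest difference of the 4 probe sets was that of 91617_at between scrambled siRNA and reagent, −0.20 (SE 0.0594, adjusted p = 0.18), with −0.22, −0.16 and −0.22 within the numbers. With the WT1 siRNA the 4 probe sets differed from scrambled siRNA by 0.00 to 0.13 apart from −0.03 at 218650_at, and from reagent by −0.14 to 0.16 (adjusted p from 0.321 to 0.996 over both comparisons). The probe sets did not share a direction in either comparison.

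AGO1, an Argonaute without strong cutting activity, had 7.53, 7.65 and 7.54 with reagent, 7.49, 7.59 and 7.38 with scrambled siRNA and 7.50, 7.56 and 7.30 with the WT1 siRNA. Both siRNA groups lay below reagent in 3 of 3 numbers, by differences of −0.09 for scrambled siRNA (adjusted p = 0.642) and −0.12 for the WT1 siRNA (adjusted p = 0.39), which did not pass. AGO2 was measured at 1 probe set annotated to AGO2 and CASC7, which RefSeq now lists as another name of AGO2. Its values ran from 6.31 to 7.59, and numbers held 90.7% of the sum of squares and groups 0.193%. Its differences were 0.01, 0.04 and 0.03 (SE 0.108, adjusted p from 0.907 to 0.977). Within numbers the WT1 siRNA differed from scrambled siRNA by −0.36, 0.33 and 0.07, so AGO2 had no common direction, and the 95% interval ran from −0.23 to 0.26.

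TNRC6B, the scaffold that binds Argonautes, had 6.55, 7.20 and 7.46 with reagent, 6.80, 7.36 and 7.24 with scrambled siRNA and 6.68, 7.17 and 7.07 with the WT1 siRNA. The WT1 siRNA lay below scrambled siRNA in 3 of 3 numbers (−0.12, −0.19 and −0.17), a difference of −0.16 (SE 0.0959) that did not pass (adjusted p = 0.471). Against reagent the difference was −0.09 (adjusted p = 0.703), with 0.13, −0.03 and −0.38 within the numbers.

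At 13 of the 19 probe sets more of the spread lay between replicate numbers than between treatments. The share of the sum of squares between numbers ran from 69.8% to 93.1% at the bright DICER1 probe sets and was 83.7% for TNRC6B. In DICER1, DROSHA and AGO2 number 1 had the lowest mean at the bright probe sets and number 2 the highest. The 3 LSM14A probe sets were the reverse, with 17.8% to 25.2% between numbers and 69.6% to 76.5% between groups. So were TARBP2 (45.1% and 48.1%), DGCR8 at 218650_at (15.1% and 29.1%) and the dim DICER1 probe set 216281_at (18.3% and 45.8%). Without the block limma called 0 of the 19 probe sets in any comparison, against 0.0180%, 0.00% and 0.00450% of all probe sets called. At an unadjusted p under 0.05 there were 3, 3 and 0 of the 19 without the block. The share of all probe sets at that unadjusted threshold was not computed, so these counts have no background to be set against.

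**Figure D4:**
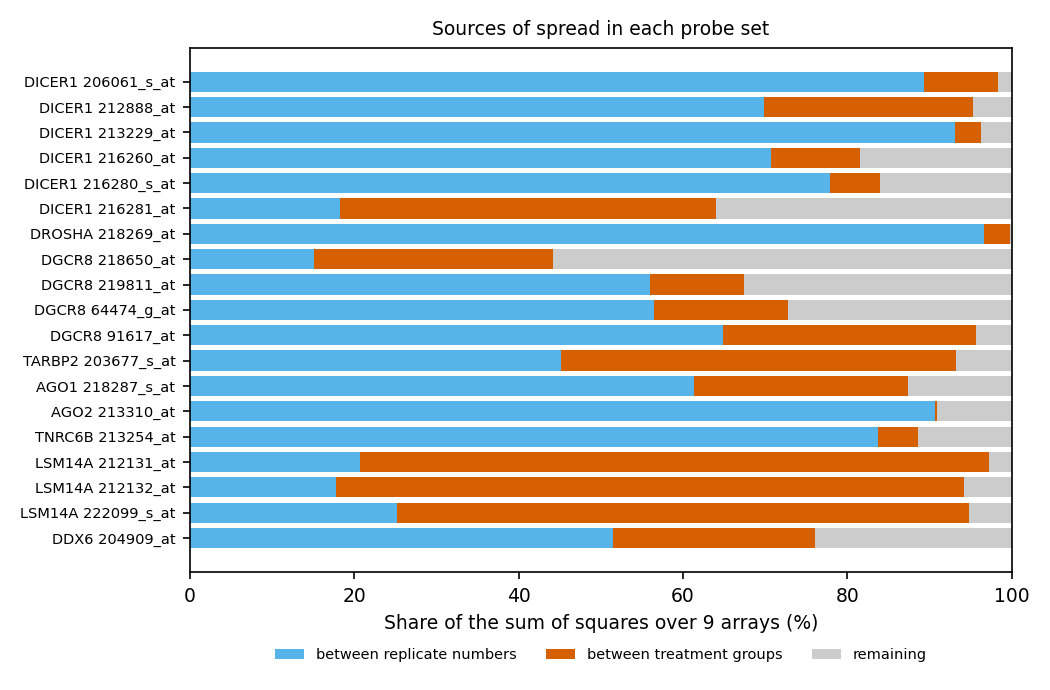
Share of each probe set's sum of squares over the 9 arrays (x axis, %) that lies between replicate numbers, between treatment groups and in the remainder. Groups hold 69.6% to 76.5% at the 3 LSM14A probe sets, and numbers hold 96.6% for DROSHA and 90.7% for AGO2.

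The rest of the pathway was read from 6 lists of 70 further genes, of which 50 had a probe set of their own, and each gene was taken at its brightest probe set. In the WT1 siRNA against scrambled siRNA 1 of the 50 rose and 0 fell, against 3.27% of all probe sets called. Against reagent limma called 0 of 50 (1.25% of all probe sets), and between the controls 0 rose and 1 fell (1.09% of all called). At an unadjusted p under 0.05 there were 14, 9 and 6 of the 50, against 16.4%, 15.1% and 11.9% of all probe sets. The genes without one, among them TNRC6A, MOV10 and XRN1, were not analysed here. Both calls were in TSN, translin, which with TSNAX forms the endonuclease that clears passenger strand fragments during loading of Argonaute.

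TSN at 201515_s_at had 10.13, 10.14 and 10.08 with reagent, 9.73, 9.73 and 9.71 with scrambled siRNA and 10.06, 10.17 and 10.01 with the WT1 siRNA. The scrambled arrays lay below all others. TSN fell by 0.40 with scrambled siRNA against reagent (SE 0.0576, adjusted p = 0.0153). It rose by 0.36 in the WT1 siRNA over the scrambled siRNA (adjusted p = 0.013) and differed by −0.04 between the WT1 siRNA and reagent (adjusted p = 0.826). These comparisons share the scrambled arrays.

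Of the other TSN probe sets 201513_at also fell with scrambled siRNA against reagent, by 0.55 (adjusted p = 0.011), and 201504_s_at differed by −0.34 (adjusted p = 0.0542). Neither passed between the siRNAs (0.30 and 0.21, adjusted p = 0.0578 and 0.151). The partner TSNAX differed by −0.29 between the WT1 and scrambled siRNAs and by 0.03 between the controls (adjusted p = 0.108 and 0.935). Without WT1 siRNA replicate 1 it passed between the siRNAs.

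The TSN calls at 201515_s_at were lost without the block (adjusted p = 0.344 between the siRNAs and 0.434 between the controls). Between the siRNAs the call was lost when scrambled replicate 1 (0.059), 2 (0.109) or 3 (0.0507) was left out, when replicate 2 of the WT1 siRNA was (0.0795), and without number 1, 2 or 3 (0.0573, 0.256 and 0.0502). Between the controls it was lost without any 1 array of these groups, with 0.0889, 0.13 and 0.0558 for scrambled replicates 1, 2 and 3 and 0.0742, 0.121 and 0.0623 for reagent replicates 1, 2 and 3. Without number 1, 2 or 3 the values were 0.0959, 0.314 and 0.0665.

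Of the other lists none had a call in any comparison. In the list of P-bodies and decapping, the removal of the 5′ cap before decay, 10 of 13 measured genes lay below 0 with the WT1 siRNA against scrambled siRNA and 10 of 13, not all the same ones, against reagent, with medians of −0.11 and −0.06. Between the controls 8 of 13 lay below 0, with a median of −0.01. Of all 50 list genes 19, 18 and 16 lay above 0 in the 3 comparisons, and of all probe sets 51.7%, 55.6% and 55.0%, with medians of 0.00, 0.01 and 0.01. Its member closest to the threshold was LSM6, a subunit of the ring that binds decaying messages, at −0.21 and −0.23 (adjusted p = 0.0959 and 0.0992). DCP2, the decapping enzyme, had −0.19 in both (adjusted p = 0.199 and 0.225), and its activator DCP1A 0.22 and 0.07 (adjusted p = 0.132 and 0.663). The 13 measured genes of deadenylation, which shortens poly(A) tails, had medians of 0.01 and 0.03, with 7 above 0 in each. The 7 measured genes of nuclear processing had medians of −0.02 and −0.01, and the 6 silencing partners −0.01 and −0.10. For small RNA turnover 2 of 7 genes were measured. Of the Argonautes outside the members AGO3 differed by −0.25 and −0.18 (adjusted p = 0.121 and 0.291) and AGO4, a dim probe set at 4.47 with the WT1 siRNA, by 0.07 and −0.00 (adjusted p = 0.747 and 0.995).

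**Figure D5:**
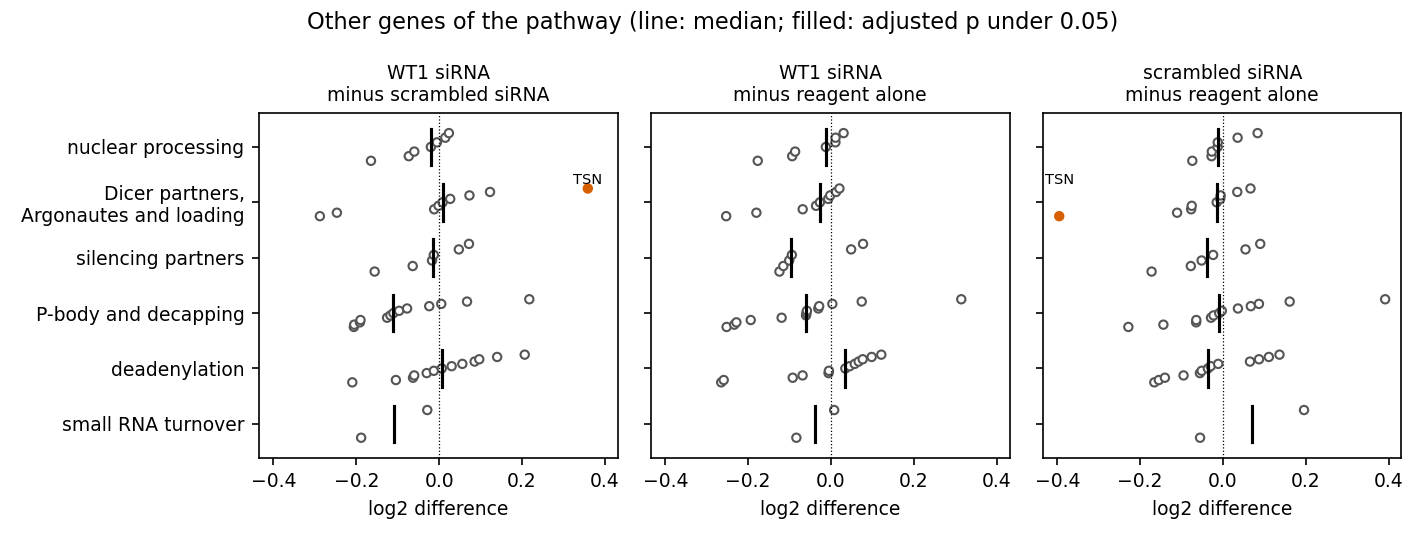
Log2 differences (x axis) of 50 further pathway genes in 6 lists (y axis), 1 point per gene at its brightest probe set, with the list median as a black line and filled orange points where the adjusted p was under 0.05. TSN is the point called between the siRNAs (0.36) and between the controls (−0.40).

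Genes with a pattern like that of a called member were found by the root mean square difference over the 9 arrays, after each gene was centred on its own mean, among 12025 genes. The closest to LSM14A at 212131_at were TYMS (0.183), CLCC1 (0.213) and MFN1 (0.232), where LSM14A itself departed from its mean by 0.513. The closest to DICER1 at 212888_at were PPM1H (0.0927), NMT2 (0.0977) and TVP23B (0.100), where DICER1 departed by 0.321. These are descriptions of 9 arrays that share replicate numbers.

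WT1 binds GC-rich sites like those of the EGR factors, so the promoters of the members were searched for GCGNGGGCG on both strands in the 250 bases before each RefSeq start (GRCh38.p14). The search covered 16 starts of 8 members. No start of LSM14A was available. AGO2 was left out by a filter on its chromosome, which was applied to the members but not to all genes. The count below covers neither gene. The motif lay before 1 of the 16 starts, and before 8.41% of 35116 starts of all genes. That start is 1 of 3 of DDX6, and its window is shown because it is the only one of the 16 with a match. It covers chr11:118790943-118791192 on the minus strand, and capitals mark 2 overlapping matches, whose first bases lie 90 and 84 bases before the start.
DDX6: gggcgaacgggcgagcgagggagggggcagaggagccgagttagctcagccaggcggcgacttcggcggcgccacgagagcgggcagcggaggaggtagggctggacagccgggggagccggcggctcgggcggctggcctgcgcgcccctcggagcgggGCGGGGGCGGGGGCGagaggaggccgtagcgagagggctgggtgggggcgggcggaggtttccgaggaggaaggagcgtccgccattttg
The DDX6 probe set, dim in all arrays, did not pass in any comparison, as given above. Binding was not measured in these data.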

How the data were processed

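RNA from 9 cultures of U251 cells was hybridised to 1 Affymetrix array each. Per the submitters' processing notes the authors used RMA (robust multi-array average), and the deposited file holds log2 values for each probe set after background correction and normalisation between arrays. The sources used here give neither its version nor a chip definition. The values were used as deposited. The 62 control probe sets were left out, which left 22215. Of these 19064 had 1 gene symbol, 1043 several and 2108 none.

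Models were fitted with limma 3.58.1 in R 4.3.3 to all 9 arrays, with a mean per group and the replicate number as a fixed block, as the rule for these genes asks for paired comparisons. Tests were two-sided. Same-numbered arrays of different groups had correlations of deviations from group means of 0.647 to 0.849, and others −0.611 to −0.0311. Deviations from a group mean cancel within the group, so positive values for the same number make the others negative on balance. Members, lists and tests were chosen with earlier results of these data known. Named were all member probe sets, WT1, cell type markers, called genes of the lists, and the 3 genes closest in pattern. Some list genes without a call were named as well, outside this rule and with their values known. The procedure was tested on simulated data. These were drawn with independent noise from the same fitted model, so they do not test whether that model suits the real arrays. For arrays, their number limits the precision. Probe sets near background understate changes. Alternatives were the absence of the block, a random block, fits of 2 groups, other scalings, a filter on dim probe sets, other moderation, averaging of probe sets and left-out arrays. Figures were drawn with matplotlib 3.10.9.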

Additional observations from a re-analysis of the deposited data

How the results depend on the processing

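The count of member probe sets called was 3, 3 and 1 in the WT1 siRNA against scrambled siRNA, the WT1 siRNA against reagent, and the scrambled siRNA against reagent. With no replicate block it was 0 in each, and the pathway lists went from 1, 0 and 1 genes to 0. With a random replicate block it was 3, 3 and 0. With the 2 groups of a comparison fitted alone it was 3, 0 and 2. Quantile normalisation, the filter on dim probe sets and the trend with robust moderation each gave 2 between the controls. With probe sets averaged per gene it was 1, 1 and 0, where LSM14A counts once. When an array or a replicate number was left out the member counts ran from 0 to 3, 0 to 3 and 0 to 2, and the list counts from 0 to 2 between the siRNAs and 0 to 1 between the controls. No called difference changed sign. The count over all probe sets was 726, 277 and 242, and without number 2 it was 2, 0 and 3. Why number 2 matters was not tested. Signal near background limits DDX6, AGO4 and the dim DICER1 probe sets.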
